A study of Mus musculus with 4 samples.

Results

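The genes described here carry glucose into mouse embryonic stem cells (ESCs) and break it down to lactate or pass it to the mitochondria. They were picked by symbol, by a rule that names no measured value but was written with earlier results of these data known, as glucose transporters (Slc2a1 and Slc2a3), hexokinases (Hk1 and Hk2), phosphofructokinases (Pfkl and Pfkp), phosphoglycerate kinase (Pgk1), lactate dehydrogenases (Ldha and Ldhb) and pyruvate dehydrogenase kinase (Pdk1). All 10 were listed among the 28250 genes of the series, and all 10 passed the filter on low values (0.001 or more in at least 2 libraries), as did 20336 genes in all. RNA sequencing was done on TBV2 ESCs kept with LIF, a mouse line that the paper calls feeder-dependent. The paper used gelatin-coated plates in some assays and does not state the surface on which the sequenced cells grew. The control group comprised 2 libraries (Solvent, 24 h) and the treated group 2 libraries exposed for the same 24 h to MS-275, an inhibitor of class I histone deacetylases, at 5 µM. Both groups were the same line with LIF, and the comparison asks how transcripts of these genes differ after a day of the inhibitor. The labels do not say that the 2 libraries of a group came from separate cultures, so the spread between them may be technical. The p-values rest on that spread, pooled in part or in full over all genes by the fits.

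As background, glucose enters the cell through facilitative transporters of the Slc2a family and is trapped by hexokinase as glucose 6-phosphate. Phosphofructokinase then commits the sugar to glycolysis, phosphoglycerate kinase recovers ATP, and pyruvate is either reduced to lactate by lactate dehydrogenase or oxidised by the pyruvate dehydrogenase complex, which Pdk1 inhibits by phosphorylation. ESCs are known for a high rate of glycolysis with lactate output even when oxygen is present, and several of these enzymes are classical targets of the hypoxia-inducible factors (HIF).

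Each value below is the normalized expression signal the authors assigned to a gene in a library, and values are given in the order Solvent replicate 1, Solvent replicate 2, MS-275 replicate 1, MS-275 replicate 2. The libraries stood apart by replicate number as well as by treatment. The value at the 99.9th percentile of genes was 5.23 and 5.09 times that at the 75th percentile in replicate 1 of the solvent and MS-275 groups, against 61.9 and 68.2 times in replicate 2, so high values were compressed in replicate 1 of both. The deposited alignments numbered 9785619 to 23467935 per library, all 35 bases long, and 53.2% and 54.4% of those in replicate 1 repeated another position, against 0% in replicate 2. In every library the deposited values tracked the other replicate's alignments in the same condition more closely (r = 0.928 to 0.950 across 11889 genes, per exon length) than those deposited with it (r = 0.825 to 0.897). Replicate numbers of alignments below are therefore as deposited, and none of this moves a library between the groups. Exon length entered the values: at a given number of alignments of the better matching library the log2 value fell with log2 length by 0.72 to 0.76, so values were compared between genes as levels close to a level per length.

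Treatment left the level of most of the 10 genes within the spread between libraries, and the clearest differences were lower Ldhb and lower Pfkp. Only the top and the bottom of the order of the 10 largely held. Slc2a3 was the highest of the 10 in 3 of 4 libraries (rank 3 in MS-275 replicate 2), and Hk1 and Pgk1 held ranks 9 and 10 in all 4. Between these, Slc2a1, Hk2, Ldha, Ldhb, Pdk1, Pfkp and Pfkl changed places from library to library, so their order was not resolved. In the limma fit without a replicate term, 0 of the 10 passed a Benjamini-Hochberg adjusted p under 0.05 in either direction, and 0 of 10 had an unadjusted p under 0.05. That fit called only 0.00492% of all genes higher and 0% lower. With the replicate number as a block, 1 of the 10 was lower, namely Ldhb, and 0 were higher, where 6.46% of all genes were called lower and 21% higher.

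**Figure D1:**
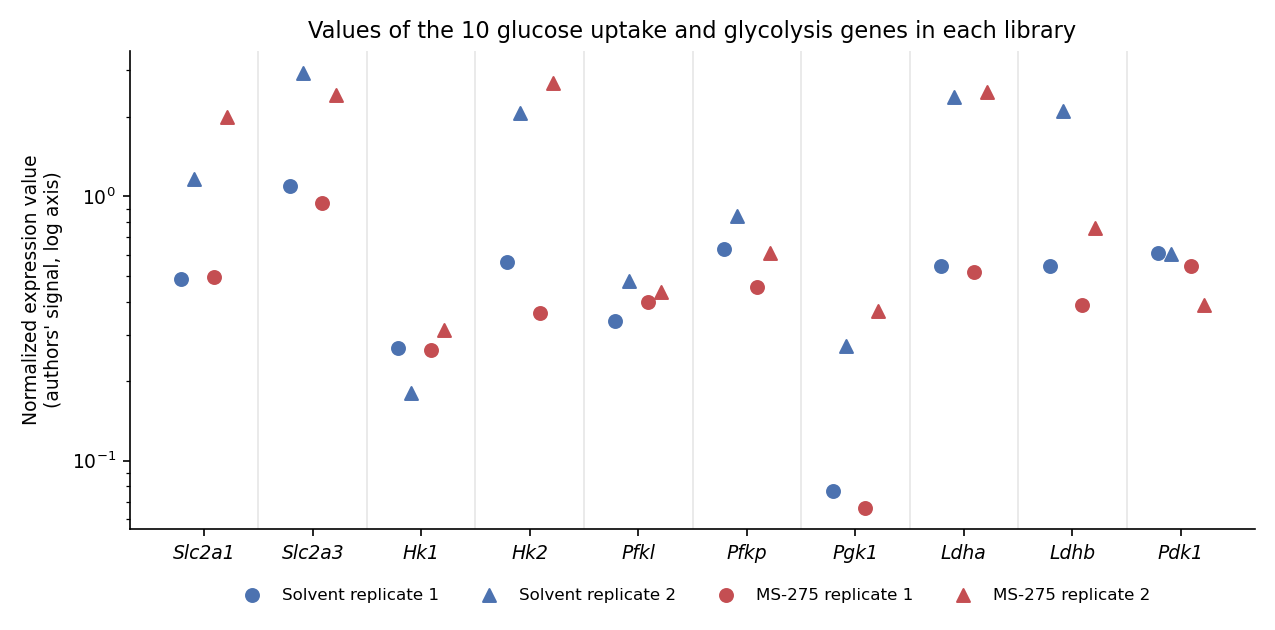
Normalized expression value (authors' signal, log axis) of each of the 10 genes in the 4 libraries, with circles for replicate 1, triangles for replicate 2, blue for solvent and red for MS-275. Replicate 2 lies above replicate 1 in both groups for every gene but Hk1 and Pdk1, and only Pfkp and Pdk1 have both red points below both blue points.

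The transporters showed no change past the test. Slc2a1, the widely expressed GLUT1, lies at chr4:118781316-118809935 on the plus strand (mm9, GENCODE M1), and its values were 0.487, 1.17, 0.495 and 2.00. The groups overlapped, the MS-275 replicate 2 library was the highest, and the fitted log2 fold change was 0.40 ± 0.86 (SE) without and 0.40 ± 0.31 with the block (limma adjusted p = 0.906 and 0.359). Slc2a3, the high-affinity GLUT3, lies at chr6:122677827-122751658 on the minus strand, and its values were 1.09, 2.94, 0.945 and 2.41. Each MS-275 library was below its solvent partner, at 0.865 and 0.820 times its value, but the pairs were farther apart than the treatments and the groups overlapped. The log2 fold change of Slc2a3 was −0.25 with a 95% interval of −1.05 to 0.56 in the blocked fit (limma adjusted p = 0.670).

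By the values, the treatment groups of both hexokinases overlapped, and Hk2 differed more between replicates than between treatments. Hk1, the constitutive hexokinase of many tissues, lies at chr10:61731603-61842656 on the minus strand, and its values were 0.268, 0.181, 0.262 and 0.311. The groups overlapped, and the pair differences were −0.03 and 0.77 on the log2 scale. Hk2, the inducible hexokinase that docks on mitochondria, lies at chr6:82675019-82724448 on the minus strand, and its values were 0.562, 2.06, 0.362 and 2.68. Its pairs moved in opposite directions, by −0.63 and 0.38 on the log2 scale, and the groups overlapped. Distinct positions of the deposited alignments gave another picture for Hk2. Distinct positions on its exons numbered 2271, 2286, 1433 and 1556, which is 207, 234, 157 and 143 per 1000000 distinct positions of the library (PPM), so both MS-275 libraries were below both solvent libraries. By that measure Hk2 was lower by a log2 fold change of −0.54 ± 0.14 without the block (limma-voom adjusted p = 0.0321) and −0.54 ± 0.11 with it (adjusted p = 0.000452). Without the block the call was lost when Solvent replicate 1, Solvent replicate 2 or MS-275 replicate 2 was left out (adjusted p = 0.0744, 0.157 and 0.0726), while the change stayed between −0.67 and −0.39. Counts of all exon alignments, repeats included, gave −0.46 ± 0.21 with the block and did not pass (limma-voom adjusted p = 0.106). Values put through quantile normalization gave −0.44 ± 0.20 with the block, also short of the threshold (limma adjusted p = 0.0992). The values as deposited and the exon positions of Hk2 disagreed, since the values rose within the replicate 2 pair while exon positions fell within both pairs. Because values tracked the other replicate's alignments, this disagreement cannot be assigned to a replicate of the alignments.

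Of the phosphofructokinases, Pfkp was lower with MS-275 in every measure and Pfkl was not. The measures come from the same libraries and are not independent. Pfkl, the liver-type subunit, lies at chr10:77449692-77472828 on the minus strand, and its values were 0.339, 0.479, 0.400 and 0.433. The MS-275 libraries lay between the solvent libraries, and the log2 fold change of 0.05 ± 0.24 in the blocked fit turned to −0.24 when the libraries were scaled by their median ratio. Pfkp, the platelet-type subunit, lies at chr13:6579014-6648023 on the minus strand, and its values were 0.634, 0.840, 0.454 and 0.610. Both MS-275 libraries were below both solvent libraries, as 12% of all genes were (32.3% were above), and the pair differences of −0.47 and −0.46 on the log2 scale were nearly equal. The values of Pfkp did not pass the test, at limma adjusted p = 0.791 without and 0.204 with the block, but with the block and median-ratio scaling the change of −0.75 ± 0.27 did (adjusted p = 0.0298). Distinct exon positions of Pfkp numbered 3253, 3200, 1826 and 2086, or 296, 327, 200 and 191 PPM, again with no overlap. The log2 fold change by exon positions was −0.66 ± 0.12 without the block (limma-voom adjusted p = 0.0120) and −0.65 ± 0.10 with it (adjusted p = 1.9e-05). Whichever library was left out, Pfkp was called lower by exon positions, with adjusted p from 0.00102 to 0.0449.

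The start-site windows of the phosphofructokinase genes are shown to set the 2 subunits side by side. Each window holds 250 bases before and 50 after a start in RefSeq on GRCm38.p6, a later build than that of the gene coordinates above, and is written 5′ to 3′ on the gene's strand. Capitals mark 4 motifs on either strand, the core of the HIF response element (ACGTG or GCGTG), the E-box CACGTG, which contains that core, the GC box (GGGCGG), and the CCAAT box (CCAAT). The Pfkl window is chr10:78009758-78010057 on the minus strand and the Pfkp window is chr13:6648722-6649021 on the minus strand.
Pfkl: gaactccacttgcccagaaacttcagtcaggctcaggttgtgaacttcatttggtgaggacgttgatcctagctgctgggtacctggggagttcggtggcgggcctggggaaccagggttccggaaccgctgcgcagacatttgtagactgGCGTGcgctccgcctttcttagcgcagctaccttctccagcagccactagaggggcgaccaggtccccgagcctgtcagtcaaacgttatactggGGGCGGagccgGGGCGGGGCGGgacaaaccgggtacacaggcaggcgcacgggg
Pfkp: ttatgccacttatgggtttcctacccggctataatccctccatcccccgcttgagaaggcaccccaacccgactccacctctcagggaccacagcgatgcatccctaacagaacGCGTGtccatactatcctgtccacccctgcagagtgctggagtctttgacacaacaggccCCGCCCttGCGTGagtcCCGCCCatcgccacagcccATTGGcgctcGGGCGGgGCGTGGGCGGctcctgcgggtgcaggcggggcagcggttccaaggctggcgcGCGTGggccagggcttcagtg
The Pfkl window held 1 HIF core and 3 GC boxes. That of Pfkp held 4 HIF cores, 4 GC boxes and 1 CCAAT box, and a HIF core and a GC box overlapped in 1 place. Among all 32851 windows of the same length, 43.8% held the HIF core, 7.15% the E-box, 35.7% the GC box, 37.4% the CCAAT box and 13.6% a TATA box (TATAAA). Windows were found for 9 of the 10 genes, 12 in all, of which 10 held the HIF core, 1 the E-box, 7 the GC box, 5 the CCAAT box and 1 the TATA box.

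Pgk1, which makes ATP from 1,3-bisphosphoglycerate, had the lowest values of the 10 in replicate 1. The gene lies at chrX:103382439-103399038 on the plus strand, and its values were 0.0767, 0.272, 0.0664 and 0.369. The groups overlapped, the pairs moved by −0.19 and 0.44 on the log2 scale, and the blocked log2 fold change of 0.12 ± 0.23 turned to −0.16 under median-ratio scaling. Only 39.0% of the 35-base words on Pgk1 exons occur once in the mm9 genome, the smallest share among the 10, with up to 6 copies. Its level and its place in the order are therefore uncertain, since reads from near-identical copies could be split or dropped by the mapping, which was not tested.

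The lactate dehydrogenase subunits separated. Ldha, the subunit that predominates in muscle, differed little within the replicate pairs, and Ldhb, the subunit that predominates in heart, was lower in both, a change that passed the test on the values with the block and not without it. Ldha lies at chr7:54096845-54110997 on the plus strand, and its values were 0.544, 2.38, 0.519 and 2.48. Replicate 2 was far above replicate 1 in both groups, while the treatments differed by −0.07 and 0.05 on the log2 scale within the pairs. The fitted log2 fold change of Ldha was −0.01, with a 95% interval of −0.70 to 0.68 in the blocked fit (limma adjusted p = 0.991). Ldhb lies at chr6:142438769-142456477 on the minus strand, and its values were 0.545, 2.10, 0.387 and 0.761. Each MS-275 library was below its partner, at 0.711 and 0.363 times its value, but MS-275 replicate 2 was above Solvent replicate 1, so the groups overlapped. The log2 fold change of Ldhb was −0.97 ± 0.79 without the block (limma adjusted p = 0.638) and −0.97 ± 0.31 with it, with a 95% interval of −1.62 to −0.32 (adjusted p = 0.0270). Over 5 blocked fits with other pseudocounts and scalings the adjusted p was 0.000502 to 0.0407, and over 8 fits without the block it was 0.250 to 0.724. Without Solvent replicate 2, in the fit without the block, the change of Ldhb was −0.0053.

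The alignments put Ldhb lower as well, but they are not independent of the values, which tracked alignments of the same condition. Distinct exon positions of Ldhb numbered 719, 727, 454 and 563, or 65.5, 74.3, 49.8 and 51.6 PPM, with no overlap between the groups. The log2 fold change was −0.44 ± 0.16 without the block (limma-voom adjusted p = 0.0931) and −0.44 ± 0.14 with it (adjusted p = 0.0115). These positions were dense: they covered 32.7% and 33.1% of the positions that map once, on both strands, in the solvent libraries and 20.7% and 25.6% in the MS-275 libraries. Such density limits how far a count of distinct positions can follow a level. The same limit holds for Slc2a3 (31.9%, 30.2%, 24.9% and 28.9%) and Slc2a1 (27.3%, 21.3%, 28.7% and 23.8%), and so for their ratio by exon positions. All alignments, with the repeats that only replicate 1 held, numbered 6578, 727, 1866 and 563. The 727 and 563 of replicate 2 are therefore the distinct positions again. These counts gave a log2 fold change of −1.04 with the block (limma-voom adjusted p = 0.00358), from pair differences of −1.59 and −0.53. With all alignments and the block, 2 of the 10 genes were lower, Pfkp and Ldhb, and 0 higher, against 10.2% and 26.3% of all genes. Among words of 35 bases, 70.0% of those on Ldhb exons and 74.8% of those on Ldha exons occur once in the genome, those of Ldhb in at most 2 copies, so some reads of either could have been lost or shared with copies.

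The windows at the starts of the lactate dehydrogenase genes are set side by side in the same way, with the same capitals. The first of 2 windows for Ldha is chr7:46845554-46845853 on the plus strand, and that of Ldhb is chr6:142507908-142508207 on the minus strand (GRCm38.p6).
Ldha: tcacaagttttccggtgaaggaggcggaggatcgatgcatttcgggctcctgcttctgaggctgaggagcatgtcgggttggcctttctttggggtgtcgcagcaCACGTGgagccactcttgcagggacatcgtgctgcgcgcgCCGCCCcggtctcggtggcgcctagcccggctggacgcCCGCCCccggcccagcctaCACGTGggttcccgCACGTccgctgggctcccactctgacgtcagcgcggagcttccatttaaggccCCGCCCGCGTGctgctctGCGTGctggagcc
Ldhb: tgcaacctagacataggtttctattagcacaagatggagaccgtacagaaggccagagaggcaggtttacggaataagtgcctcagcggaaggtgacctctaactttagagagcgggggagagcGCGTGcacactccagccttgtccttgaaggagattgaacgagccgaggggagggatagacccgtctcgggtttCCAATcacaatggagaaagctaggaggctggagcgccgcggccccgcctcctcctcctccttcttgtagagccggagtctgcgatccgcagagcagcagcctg
Ldha had 7 matches to the HIF core in this window, of which 4 were its 2 palindromic E-boxes read on both strands, and 3 GC boxes, and no other window of the 10 genes held an E-box. Ldhb had 1 HIF core, 1 CCAAT box and no GC box on either strand. Bases G and C made up 67.3% of the Ldha window and 57.3% of that of Ldhb.

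Pdk1, the kinase that holds back pyruvate dehydrogenase, lies at chr2:71711281-71741915 on the plus strand, and its values were 0.608, 0.604, 0.544 and 0.390. The solvent libraries nearly coincided, and both MS-275 libraries were below them, by −0.16 and −0.63 on the log2 scale. The fitted log2 fold change was −0.39 ± 0.26 in the blocked fit (limma adjusted p = 0.281), and −0.68 ± 0.26 with the block and median-ratio scaling (adjusted p = 0.0462). Exon positions gave −0.18 ± 0.11 (limma-voom with the block, adjusted p = 0.192).

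Across the 10 genes the median log2 fold change was −0.07, beside 0.20 over all genes tested. Only Slc2a1 was higher in both replicate pairs, as were 10163 of all 20336 genes, and 4 were lower in both (Slc2a3, Pfkp, Ldhb and Pdk1), where 26.5% of all genes were. Median-ratio scaling moved the median of all genes from 0.20 to −0.01 and that of the 10 genes to −0.35. The median of the 10 was thus below that of all genes under either scaling. It was above without Solvent replicate 2 (0.38 beside 0.097) and without MS-275 replicate 1 (0.46 beside 0.099). Levels of the 10 lay at percentiles 52.0 to 99.9 of the tested genes, while the median of all genes includes low genes. With pseudocounts of 0.001 and 0.02 that median was 0.25 and 0.11. Whether the difference goes with level was not tested. With the block and median-ratio scaling, 3 of the 10 were called lower (Pfkp, Ldhb and Pdk1) and 0 higher, against 14.1% and 16.6% of all genes. By exon positions, 2 of the 10 were lower without the block (Hk2 and Pfkp), against 5.08% of all genes, and 0 were higher, against 15.1%. With the block, 3 were lower by exon positions (Hk2, Pfkp and Ldhb), against 13.8%, and 0 were higher, against 29.7%.

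**Figure D2:**
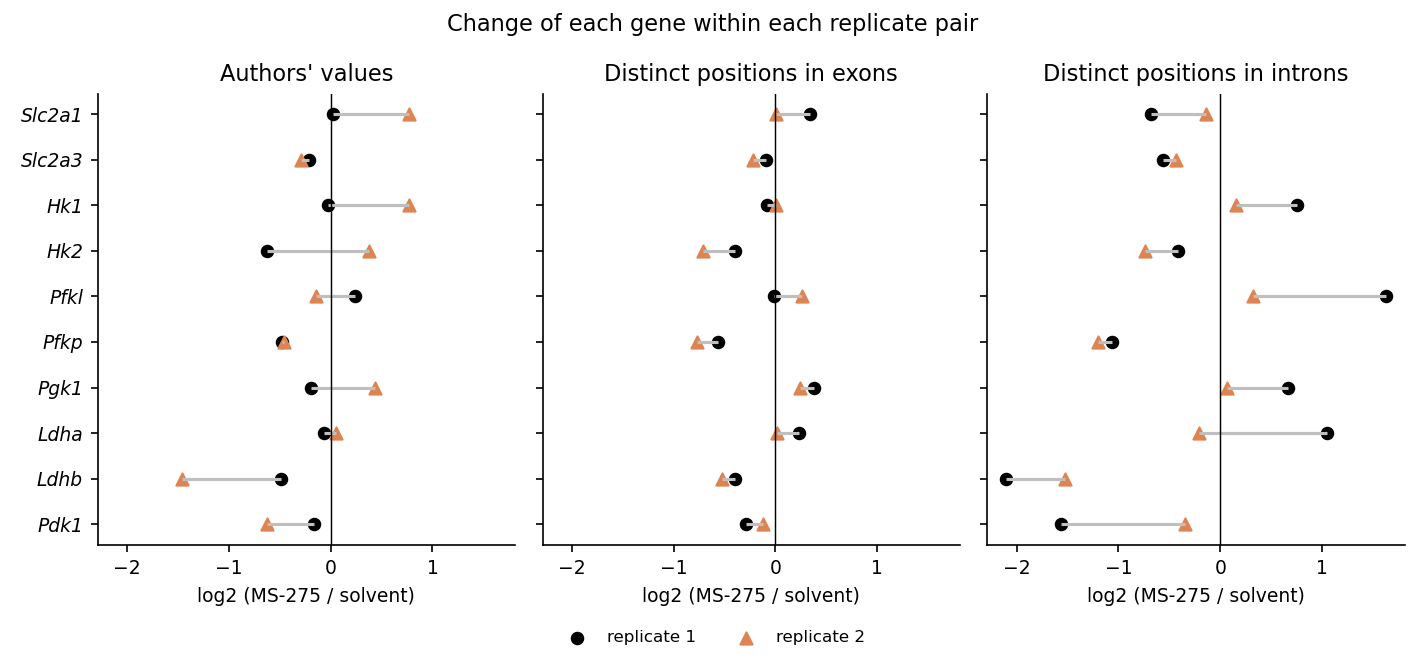
Change of each gene within each replicate pair, as log2 of MS-275 over solvent, for the authors' values, for distinct alignment positions in exons and for those in introns (both in PPM), with black circles for replicate 1 and orange triangles for replicate 2. Pfkp, Ldhb, Slc2a3 and Pdk1 lie left of 0 in all 3 panels, and Ldhb reaches −2.10 and −1.52 in introns.

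Alignments within introns were counted after the other measures had been seen. They come from the same libraries, and it is not known if the authors' values use them. Whether such alignments came from unspliced transcripts, unannotated exons or other RNA was not tested. Ldhb had many: introns held 62.6% and 69.6% of its distinct positions in the solvent libraries and 33.9% and 53.4% in the MS-275 libraries. Intron positions of Ldhb numbered 1202, 1661, 233 and 645, or 110, 170, 25.5 and 59.1 PPM, and the groups did not overlap. Its log2 fold change in introns was −1.70 ± 0.43 without the block (limma-voom adjusted p = 0.0320) and −1.68 ± 0.17 with it (adjusted p = 8.3e-22). In the blocked intron fit the variance was pooled in full over all genes. Its p-values, for Ldhb and the other genes, therefore do not measure how closely the 2 pairs of a gene agreed. The pairs of Ldhb moved by −2.10 and −1.52. Without MS-275 replicate 1 the change of Ldhb in introns was −1.01 and no longer passed (adjusted p = 0.130).

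Pfkp introns were lower as well, with 2554, 2659, 1017 and 1289 positions, or 233, 272, 111 and 118 PPM. These groups did not overlap either, and the log2 fold change was −1.04 ± 0.24 without the block (limma-voom adjusted p = 0.0245) and −1.05 ± 0.14 with it (adjusted p = 6.1e-13). Most of these positions lay in introns 17 and 18, which held 85.9% of them and moved by −1.40 and −1.47 and by −1.08 and −1.29 in the pairs. The other Pfkp introns together held 27.5, 33.8, 19.0 and 23.2 PPM, smaller pair differences of −0.54 and −0.55 with no overlap, and intron 24 alone, with 45 positions, moved by 0.25 and −0.056. The unblocked call over all Pfkp introns was lost without Solvent replicate 2 (adjusted p = 0.0763) or MS-275 replicate 1 (adjusted p = 0.140). Without the block these 2 genes were the only ones of the 10 called in introns, both lower, against 2.89% of all genes lower and 11.1% higher.

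With the block, 4 of the 10 were lower in introns and 1 higher, against 13.6% and 28.9% of all genes. The added genes were Slc2a3 (−0.42 ± 0.17, limma-voom adjusted p = 0.0346), Pdk1 (−0.71 ± 0.19, adjusted p = 0.00103) and, higher, Pfkl (1.07 ± 0.30, adjusted p = 0.00175). Pfkl rested on few positions, 48, 61, 123 and 85. Pdk1 had 370, 647, 104 and 567, with the lowest in MS-275 replicate 1, and without that library its unblocked change was 0.34.

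Exons and introns were also compared one by one where they held at least 20 positions over the 4 libraries (8 of 9 exons and 6 of 8 introns of Ldhb, 23 of 25 and 13 of 24 of Pfkp). Among these, Ldhb was lower in both pairs in 8 of 8 exons and 6 of 6 introns, and Pfkp in 22 of 23 exons and 11 of 13 introns. Positions of Pfkp were unevenly spread. Exon 18 held 33.4% of its exon positions and was lower by −1.02 and −1.34 on the log2 scale in the pairs, while exon 25, with 1373 positions, moved by 0.18 and −0.40. Exon 18 lies between introns 17 and 18, so 1 stretch of the gene weighed on both the exon and the intron counts of Pfkp. Without exon 18 the other Pfkp exons held 181, 209, 143 and 144 PPM, pair differences of −0.34 and −0.53, and the groups still did not overlap. No fit was run without this stretch, so the calls of Pfkp by positions include it. Hk2 was lower in both pairs in 17 of 18 exons and 7 of 9 introns. Higher in both pairs were 7 of 9 Ldha exons (of 11 annotated) and 3 of 3 Pgk1 exons (also of 11), and 0 of either were lower in both. Over all genes, the totals of exon positions were lower in both pairs for 31.5% and higher in both for 48.4%. Those of intron positions were lower in both for 33.5% and higher in both for 45.9%. Segments of 1 gene share its transcripts and are not replicates.

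**Figure D3:**
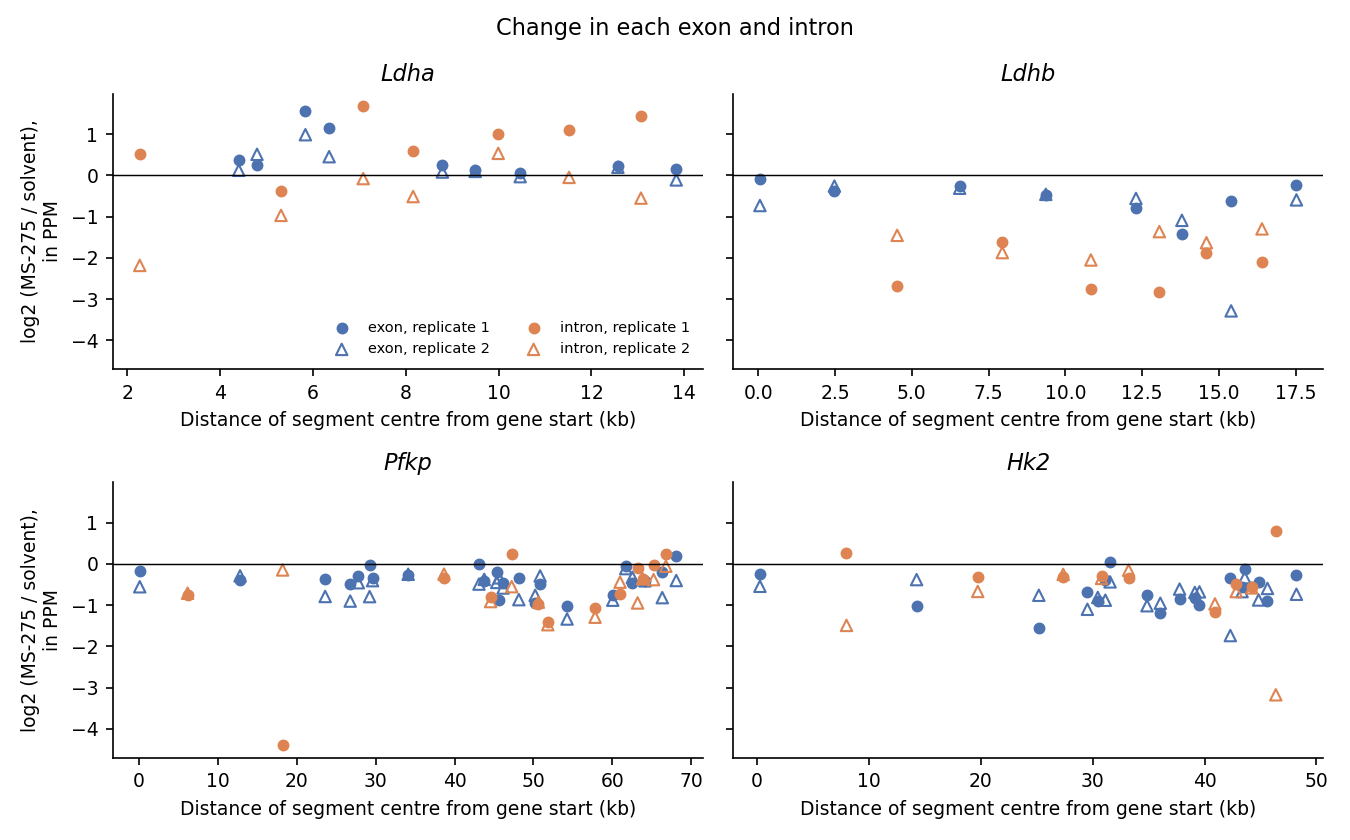
Log2 ratio of MS-275 to solvent, in distinct positions as PPM, for each exon (blue) and intron (orange) of Ldha, Ldhb, Pfkp and Hk2 with at least 20 positions, by the distance of its centre from the gene start in kb. Filled circles are replicate 1 and open triangles replicate 2. All points of Ldhb lie below 0, its introns between −2.83 and −1.30, while Ldha exons lie around or above 0.

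Ratios of paralogs within a library do not depend on a scale factor applied to that library, apart from the 0.005 added here to each value before the ratio was taken. They are not free of the compression of high values in replicate 1. Sizes of ratios and of pair differences from the values are therefore not comparable between replicates. Ldha over Ldhb was 0.998 and 1.14 in the solvent libraries and 1.34 and 3.24 in the MS-275 libraries, a log2 difference of 0.97 with pair differences of 0.42 and 1.51. Pfkl over Pfkp was 0.538 and 0.573 with solvent and 0.882 and 0.713 with MS-275, a log2 difference of 0.51. Slc2a1 over Slc2a3 was 0.448 and 0.397 with solvent and 0.527 and 0.829 with MS-275, a log2 difference of 0.65. For these 3 ratios both MS-275 libraries were above both solvent libraries. Hk1 over Hk2 was 0.480 and 0.0901 with solvent and 0.728 and 0.118 with MS-275, so that ratio rose within each pair by 0.60 and 0.39 on the log2 scale while the groups overlapped. The exact two-sided permutation test of 2 against 2 libraries cannot give a p below 0.333. It gave 0.333 for the first 3 ratios and 0.667 for Hk1 over Hk2, or 0.444 and 0.667 after adjustment over the 4 ratios. Exon positions gave the same direction in each pair for all 4, with differences of 0.58 for Ldha over Ldhb, 0.79 for Pfkl over Pfkp, 0.33 for Slc2a1 over Slc2a3 and 0.51 for Hk1 over Hk2. By exon positions it was Slc2a1 over Slc2a3 that overlapped between the groups, at 0.334, 0.275, 0.451 and 0.321 (exact permutation p = 0.667), and Hk1 over Hk2 that did not (exact permutation p = 0.333). In introns the differences were 2.23 for Ldha over Ldhb, 2.10 for Pfkl over Pfkp, 1.03 for Hk1 over Hk2 and 0.085 for Slc2a1 over Slc2a3, whose pairs moved by −0.12 and 0.29.

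**Figure D4:**
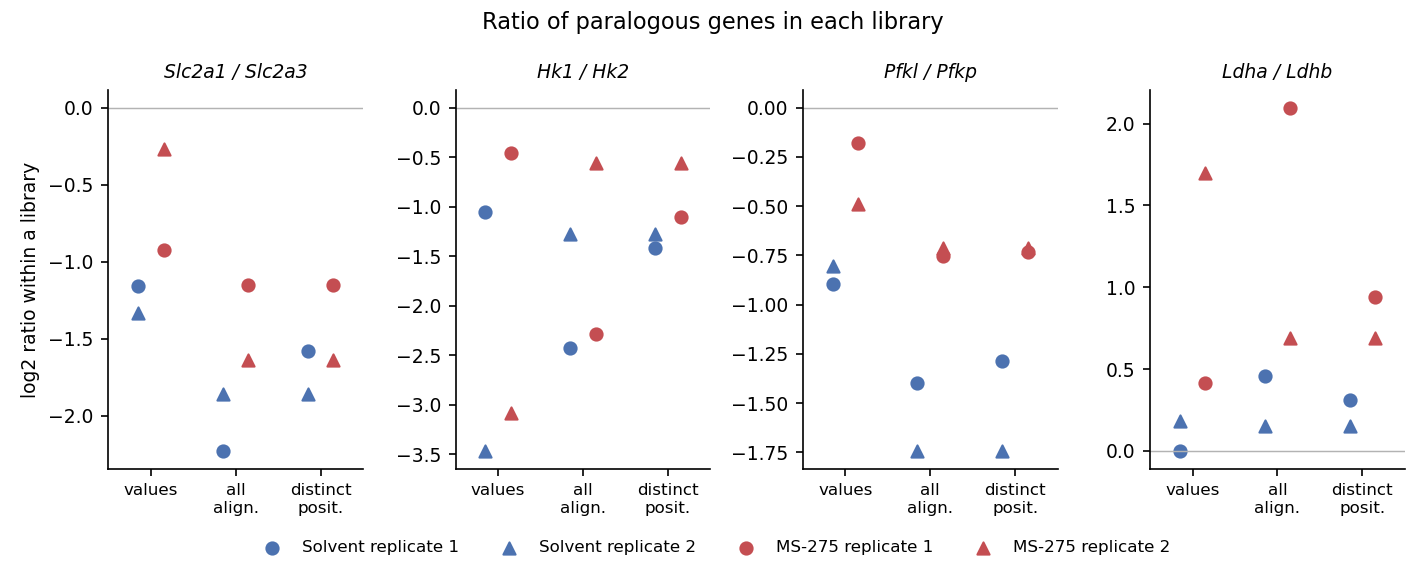
Log2 ratio of paralogous genes within each library, from the authors' values, from all exon alignments and from distinct exon positions, with circles for replicate 1, triangles for replicate 2, blue for solvent and red for MS-275. For Pfkl over Pfkp and Ldha over Ldhb the red points lie above the blue points in all 3 measures.

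The rest of glucose metabolism was described by 8 lists, with 98 genes tested outside the 10. Of these 98, 0 passed without the block (before adjustment, 15 were higher and 2 lower at p under 0.05), and with the block 30 were higher (30.6%, beside 21% of all genes) and 2 lower (2.04%, beside 6.46%). With the block and median-ratio scaling 23 were higher (23.5%, beside 16.6%) and 9 lower (9.18%, beside 14.1%). Their median log2 fold change was 0.46, beside 0.20 for all genes. All calls named in the next 3 paragraphs are from limma with the block on the values, and the adjusted p of each gene named as called lay between 2.7e-05 and 0.0419 there.

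Counts of each list are to be read beside those 21% and 6.46% of all genes. Among 20 other glycolytic enzymes, 5 rose and 0 fell, and a share of 25% higher is near the background. The largest fitted rise was in Ldhc, the lactate dehydrogenase of testis. Its values were 0.0511, 0.0188, 0.125 and 0.0826, with a log2 fold change of 1.55. The lowest was Pfkm, the muscle-type phosphofructokinase, with values of 0.241, 0.152, 0.188 and 0.114 and a log2 fold change of −0.38 (adjusted p = 0.213, short of the threshold). Its intron positions gave a change of the opposite sign, 1.81. Of 15 other hexose and lactate transporters, 14 were higher in both pairs and 7 rose, led by the lysosomal Slc2a6 at 0.00596, 0.00266, 0.0260 and 0.0154. None of the 15 fell, and the lowest change was 0.12 in Slc16a1, the lactate carrier MCT1, at 0.382, 0.631, 0.402 and 0.706.

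In the list of enzymes that make or remove fructose 2,6-bisphosphate, 4 were tested and 1 rose, Pfkfb4 (0.0117, 0.00683, 0.0334 and 0.0131), while Pfkfb3 had the lowest change, −0.17. Of 15 genes for pyruvate entry into mitochondria, 4 rose and 0 fell, with Pdha2, the testis form of the pyruvate dehydrogenase subunit, highest at 1.45 and Pdhb lowest at −0.51 (adjusted p = 0.122). Of 11 genes of the pentose phosphate pathway, 2 rose, both transketolase-like, and Tktl1 went from 0.0103 and 0.00862 to 0.0938 and 0.0641. Tkt itself, the transketolase with values of 0.597, 0.908, 0.550 and 0.542, changed by −0.43 (adjusted p = 0.269).

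Of 6 gluconeogenesis genes, Fbp1 rose by 1.44 and Pck2, the mitochondrial phosphoenolpyruvate carboxykinase, fell by 1.42 on the log2 scale, from 0.290 and 0.127 to 0.118 and 0.0390. Of 22 HIF genes and targets outside glycolysis, 7 rose and 1 fell. Adm, which encodes adrenomedullin, rose by 2.47 on the log2 scale, from 0.00222 and 0.00895 to 0.0259 and 0.0952. Bhlhe40, a basic helix-loop-helix repressor, fell by 1.86, from 0.174 and 0.177 to 0.0413 and 0.0487. Of 5 glucose-sensing factors, 3 rose, among them Txnip, an inhibitor of glucose uptake, at 1.03, 0.558, 1.19 and 4.05. The log2 fold change of Txnip was 1.53, and its pairs moved by 0.20 and 2.85. These 2 differences are not comparable in size, since Txnip lay at percentiles 99.91 and 99.99 in replicate 1 of solvent and MS-275, where high values were compressed. Mlx had the lowest change of the 5, −0.12. With median-ratio scaling added to the block, Pfkfb4 no longer passed (adjusted p = 0.0959), and Pfkm, Pdhb and Tkt passed as lower (adjusted p = 0.0265, 0.0114 and 0.0463). Many of the genes that rose were at low levels in both groups, and whether reads of near-identical copies entered them was not tested.

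**Figure D5:**
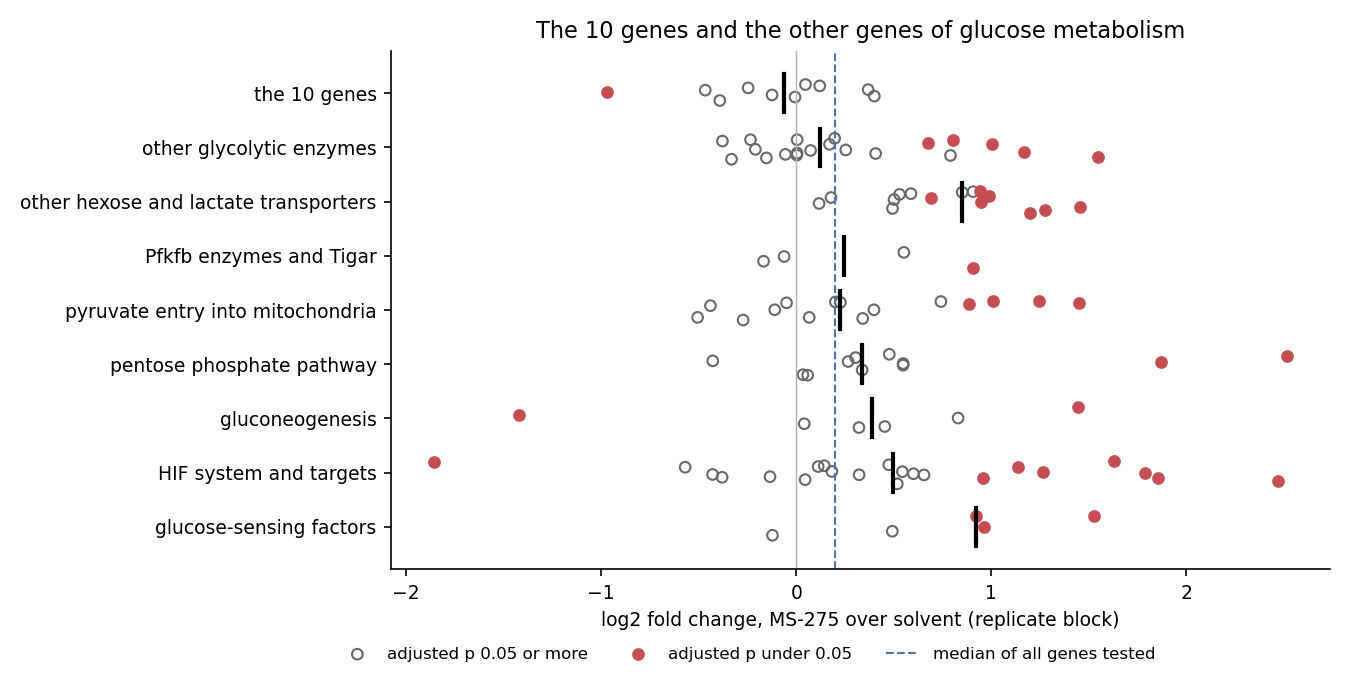
Log2 fold change of MS-275 over solvent in the limma fit with the replicate block, for the 10 genes and the 8 lists. Each point is a gene, filled red where the adjusted p is under 0.05, the black bar is the median of a list and the dashed line the median of all genes tested (0.20). Of the 10 genes only Ldhb is filled, and the medians of the 10 (−0.07) and of the other glycolytic enzymes (0.12) lie left of the dashed line.

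Markers of the cells moved with the treatment. Of 12 ESC markers, 12 were lower in both pairs, where 26.5% of all genes were. With the block 3 were called lower (Pou5f1, Esrrb and Utf1), against 6.46% of all genes. The summed value of the ESC markers was 6.56 and 24.5 with solvent and 5.42 and 14.5 with MS-275, with none at 0. Of 12 fibroblast markers, which cells of a feeder layer would carry, 6 rose with the block and 0 fell, against 21% and 6.46% of all genes. With median-ratio scaling added, 5 rose and 1 fell, against 16.6% and 14.1%. Col3a1, Dcn and Prrx1 were lower in both pairs, at 0.698 and 0.483, 0.314 and 0.473, and 0.680 and 0.494 times the solvent partner, Col3a1 and Prrx1 with no overlap. The sum of the 12, to which Thy1 and Col1a2 gave most, was 0.337 and 0.308 with solvent and 0.635 and 0.682 with MS-275, none at 0. The sum over the 10 genes was 5.16 and 13.0 with solvent and 4.44 and 12.4 with MS-275. The part of either marker list in the changes of Ldhb, Pfkp or any other gene above was not tested, and in bulk RNA fewer cells that express a gene and less RNA per cell cannot be told apart.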

How the data were processed

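RNA sequencing of 4 libraries of TBV2 ESCs was analysed, 2 with solvent and 2 with MS-275, grouped by their titles. The paper names DMSO as a vehicle and the control alignments are labelled ETOH, so the text says solvent. The authors mapped reads to mm9 and deposited a normalized expression signal per gene made with Genomatix, whose formula, aligner and version are not given in the sources used here, and the alignments as positions. Their shorter tables and tables of their own ratios were not used. The 10 genes, the 8 pathway lists and the 2 marker lists were chosen with earlier results of these data known. From each list the genes with the largest and the smallest change were named.

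Genes at 0.001 or more in at least 2 libraries were fitted on log2(value + 0.005), a scale that understates changes of low genes, with limma 3.58.1 in R 4.3.3 (lmFit, eBayes with a trend), and p-values were adjusted by Benjamini-Hochberg over all genes tested. Blocked fits took the replicate number as the block, because the authors' headers call the values of replicate 1 old in both conditions. Deviations from the group means correlated at 0.764 over 20336 genes between libraries of 1 number. Alignments were counted, without regard to strand, on exons and introns of GENCODE M1 genes on mm9, each distinct position once. Limma-voom was run on genes that reached 10 such positions in 2 or more libraries. Scripts used Python 3.11.15 with numpy 2.4.6, pandas 2.3.3, numba 0.67.0 and matplotlib 3.10.9, and the fits were tested on simulated data. Alignment depth was 9785619 to 23467935 per library, but the depth behind a single deposited signal cannot be read from it. Alternatives changed the block, pseudocount, filter, scaling, variance prior, measure and libraries.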

Additional observations from a re-analysis of the deposited data

How the results depend on the processing

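Of 454 comparisons of a named gene's change with its reported value over settings with all libraries, 324 kept direction and side of the threshold, 110 gained a call and 20 turned sign. For the values the reference was the fit without the block, in which none of these genes passed, so no call could be lost there. Set against the blocked fit, Ldhb lost its call without the block (adjusted p = 0.638), as did the list genes called there, and Pfkfb4 with median-ratio scaling (adjusted p = 0.0959). Of 184 with 1 library left out, 146 kept both, 6 gained a call, 6 lost one and 26 turned sign. The count of the 10 genes called higher was 0 and became 1 with intron positions and the replicate block, an alternative chosen after seeing the data, as were all intron fits and the fits on positions with a library left out. The count called lower was 0 without the block. It became 1 with the replicate block alone or with either other pseudocount, 2 with quantile normalization and the block, 3 with median-ratio scaling and the block, 2 and 3 with exon positions without and with the block, 2 with all alignments and the block, and 2 and 4 with intron positions without and with the block.

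Genes of the 8 lists called higher went from 0 to 30 with the replicate block, 3 with a mean of at least 0.01, 23 with the block and median-ratio scaling, 25 with the block and quantile normalization, 28 and 27 with the block and pseudocounts of 0.001 and 0.02, 17 and 42 with exon positions without and with the block, and 40 with all alignments and the block. Those called lower went from 0 to 2, 9 and 4 with the block alone, with median-ratio scaling and with quantile normalization, to 2 with the block and either pseudocount, to 2 and 3 with exon positions without and with the block, and to 2 with all alignments and the block. The median change of the 10 genes, −0.07, moved to −0.35 with median-ratio scaling and −0.20 with quantile normalization, with or without the block. The difference in Pfkl over Pfkp moved from 0.51 to 0.84 with all alignments. With intron positions, an alternative chosen after seeing the data, it moved to 2.10, that in Ldha over Ldhb from 0.97 to 2.23 and that in Hk1 over Hk2 to 1.03. Without exon 18 the mean pair difference of Pfkp in exons went from −0.67 to −0.44, and without introns 17 and 18 that in introns went from −1.13 to −0.54.

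Leaving out 1 library leaves a group with 1 sample, which is assumed to vary like the others, and unbalances the replicates. By the values, the 10 genes called higher and lower then stayed at 0 and 0. By exon positions 0 to 1 were higher and 1 to 2 lower, and by intron positions 0 to 1 higher and 0 to 3 lower, with Slc2a1 higher in exons without MS-275 replicate 2, Ldha higher in introns without Solvent replicate 2 and none called in introns without MS-275 replicate 1. List genes called higher by the values ranged from 0 to 7 and lower from 0 to 1. The highest counts for the lists came without MS-275 replicate 1. The median of the 10 ranged from −0.80 to 0.46, and the differences in the ratios from 0.32 to 0.97 for Slc2a1 over Slc2a3, −0.82 to 1.81 for Hk1 over Hk2, 0.36 to 0.67 for Pfkl over Pfkp and 0.33 to 1.60 for Ldha over Ldhb. The median and the Hk1 over Hk2 difference fell on either side of 0 by which replicate was unpaired.

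Changes of sign with all libraries were as follows. With median-ratio scaling, with or without the block, Pfkl was −0.24, Pgk1 −0.16 and Slc16a1 −0.17. Quantile normalization, with or without the block, gave −0.065 for Pgk1. Exon positions gave −0.010 without and −0.019 with the block for Hk1, and 0.13 and 0.14 for Ldha. All alignments with the block gave −0.017 for Hk1 and 0.053 for Ldha. Intron positions gave −0.32 without and −0.32 with the block for Slc2a1, 0.56 and 0.40 for Ldha, and 1.85 and 1.81 for Pfkm. With 1 library left out, values ranged across 0 for Slc2a1 (−0.60 to 1.40), Slc2a3 (−0.96 to 0.47), Hk2 (−1.56 to 1.31), Pfkl (−0.20 to 0.29), Pgk1 (−1.07 to 1.32), Ldha (−1.13 to 1.12), Slc16a1 (−0.29 to 0.52), Pdhb (−1.05 to 0.040) and Mlx (−0.68 to 0.44). So did exon positions for Slc2a1 (−0.14 to 0.53), Hk1 (−0.15 to 0.12), Pfkl (−0.071 to 0.34), Ldha (−0.018 to 0.31) and Pdk1 (−0.35 to 0.0065), and intron positions for Pgk1 (−0.17 to 1.08), Ldha (−0.38 to 1.39) and Pdk1 (−2.01 to 0.34). The cause was not tested.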
